A study of Mus musculus with 2 samples.

Results

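T cell receptor gene segments are the separate V (variable), D (diversity), J (joining) and C (constant) units from which the antigen receptor genes of T cells are assembled. They were taken as all genes of the GENCODE M21 annotation (mouse genome build mm10) that carry the gene types TR_V_gene, TR_D_gene, TR_J_gene or TR_C_gene. The rule gave 226 segments among 55413 genes of chromosomes 1 to 19, X and Y, namely 144 V, 4 D, 70 J and 8 C segments. The combined Tra and Trd locus on chromosome 14 held 172 (115 V, 2 D, 53 J and 2 C), Trb on chromosome 6 held 39 (22 V, 2 D, 13 J and 2 C), and Trg on chromosome 13 held 15 (7 V, 4 J and 4 C). A further 44 V and J pseudogenes at these loci were not counted as members. Accessibility was read from 2 ATAC-seq libraries, an assay in which a transposase inserts adapters into open DNA, of activated regulatory T cells from male mice of the Foxp3CreERT2 x Rosa26YFP strain aged 4 months. Both libraries were technical replicates (1 and 2) of biological replicate 1 and form a single group, and the peak lists describe them together. The lists therefore carry no replicate error, the read depth behind them is unknown, and every interval below covers counting error only. Foxp3CreERT2 places an inducible Cre recombinase under the regulatory T cell gene Foxp3 and Rosa26YFP is a Cre-dependent reporter, and no treatment of the mice is given in the labels.

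In the thymus the RAG recombinase joins 1 V segment, in Trb and Trd also a D segment, to 1 J segment, and RNA splicing connects the joined exon to a C segment. Alpha and beta chains make up the receptor of conventional and regulatory T cells, gamma and delta chains that of a separate lineage. Joining usually removes the DNA between the joined segments, and most Trd segments lie between the Trav and Traj segments. Each locus has an enhancer near its constant genes, named E-alpha, E-beta, E-gamma and E-delta, and V segments carry promoters of their own. Germline promoters, such as the one upstream of Trbd1, drive transcription across unjoined segments before recombination. Since the cells were measured in bulk, a closed site, a site open in few cells and a site deleted in many cells cannot be told apart.

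The sequences at the regions that stood out around the constant genes and enhancers are shown first, on the plus strand of mm10 and read from the RefSeq assembly of that build. Capitals mark the RUNX motif TGTGGT, the ETS core GGAAG and the CRE-like motif TGACNTCA, each on either strand. RUNX, ETS and CREB family proteins are known to bind E-alpha in thymocytes. Over all 26090 regions, 26.1% held the RUNX motif within 150 bases of the summit, 77.2% the ETS core and 7.65% the CRE-like motif, so a match is a description and not evidence of a bound factor. The first is a stretch of the widest region downstream of Trac, chr14:54227431-54227730. Neither its CRE-like match nor its ETS matches lie wholly within 150 bases of the summit.
E-alpha window, widest region: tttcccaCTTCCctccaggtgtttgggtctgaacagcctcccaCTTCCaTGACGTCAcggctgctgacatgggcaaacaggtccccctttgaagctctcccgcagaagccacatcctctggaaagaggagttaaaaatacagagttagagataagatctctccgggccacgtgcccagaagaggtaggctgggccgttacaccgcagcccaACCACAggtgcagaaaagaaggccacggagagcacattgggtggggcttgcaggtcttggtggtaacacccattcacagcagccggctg
The next is a stretch of the strongest region of the same window, chr14:54233360-54233560.
E-alpha window, strongest region: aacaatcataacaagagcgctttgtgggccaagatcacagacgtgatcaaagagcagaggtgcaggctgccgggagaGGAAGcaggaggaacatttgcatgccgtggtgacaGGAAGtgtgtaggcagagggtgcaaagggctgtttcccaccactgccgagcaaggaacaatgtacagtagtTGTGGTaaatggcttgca
The third is a stretch of the strongest region between Trbc2 and Trbv31, chr6:41554443-41554692, in which both marked matches are RUNX motifs. Neither GGAAG nor the CRE-like motif was found in this stretch, and ETS sites of other sequence were not searched.
E-beta window, strongest region: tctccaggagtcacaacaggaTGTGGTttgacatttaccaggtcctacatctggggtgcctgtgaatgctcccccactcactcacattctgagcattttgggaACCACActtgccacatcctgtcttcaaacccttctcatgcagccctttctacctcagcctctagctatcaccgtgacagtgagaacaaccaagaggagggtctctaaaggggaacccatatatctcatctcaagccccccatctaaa
The fourth, chr14:54222456-54222656, lies in an intron of Trac.
Trac intron: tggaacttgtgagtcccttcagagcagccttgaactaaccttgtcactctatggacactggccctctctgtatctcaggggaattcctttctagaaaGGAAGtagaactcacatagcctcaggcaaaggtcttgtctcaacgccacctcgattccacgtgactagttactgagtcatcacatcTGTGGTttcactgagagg
The fifth, chr6:41533013-41533212, ends with Trbd1 itself, whose 12 bases are the capitals here.
Trbd1 and its upstream sequence: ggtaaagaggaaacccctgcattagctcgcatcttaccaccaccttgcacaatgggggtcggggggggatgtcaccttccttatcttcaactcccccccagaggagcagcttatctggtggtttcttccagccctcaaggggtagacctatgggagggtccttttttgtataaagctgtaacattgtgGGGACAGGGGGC

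At V segments the sequences that matter are shared promoters and repeated copies. Capitals mark CRE-like matches in the first 2 stretches, each of which ends 3 bases into the segment.
Trbv12-2 start: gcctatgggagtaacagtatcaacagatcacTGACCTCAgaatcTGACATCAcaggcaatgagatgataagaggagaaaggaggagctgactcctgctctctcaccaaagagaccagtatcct
Trbv23 start: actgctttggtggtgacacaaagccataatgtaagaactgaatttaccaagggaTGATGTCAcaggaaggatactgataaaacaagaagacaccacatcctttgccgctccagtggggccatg
These lie at chr6:41118731-41118853 and chr6:41215953-41216075. The summit of the Trbv12-2 region was 450 bp upstream of the segment, outside the printed stretch, with 0 CRE-like matches within 150 bases. The summit of the Trbv23 region was 28 bp upstream, inside the stretch, with 1 such match. The Trav15 stretch below, from chr14:53174183-53174303, is printed once because the same bases stand at Trav15d-1-dv6d-1 (chr14:52863223-52863343) and Trav15-1-dv6-1 (chr14:53559534-53559654), with 0 differences in either. It lies wholly upstream of Trav15n-1, whereas at the other copies its end reaches into the annotated segment.
Trav15n-1 upstream: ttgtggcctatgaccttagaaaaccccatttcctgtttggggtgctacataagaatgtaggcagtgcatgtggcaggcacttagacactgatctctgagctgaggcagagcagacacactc
In the last pair, from chr14:53132553-53132673 upstream of Trav6n-6 and chr14:54239211-54239331 within Dad1, capitals mark a match to the consensus of CTCF, a protein that anchors chromatin loops.
Trav6n-6 upstream: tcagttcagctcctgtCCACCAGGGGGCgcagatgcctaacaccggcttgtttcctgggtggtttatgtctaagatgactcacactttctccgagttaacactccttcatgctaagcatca
Region within Dad1: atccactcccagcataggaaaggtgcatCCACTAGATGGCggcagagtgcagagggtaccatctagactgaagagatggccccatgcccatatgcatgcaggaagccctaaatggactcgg

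Peaks that overlapped were merged into regions, and each region was given the signal value and the −log10 p of its strongest peak. The signal value is a column of the deposited lists, whose measure and scale the sources used here do not state. The thresholded list, which keeps peaks at an irreproducible discovery rate (IDR, a measure of how well a peak ranks in both of 2 inputs) of 0.05 or below, gave 26090 regions, and the more permissive pseudoreplicated list gave 50037. Each locus was read from 50 kb before its first to 50 kb after its last segment. The Tra/Trd window (chr14:52377928-54274206) held 27 thresholded regions, the Trb window (chr6:40841229-41608452) held 12 and the Trg window (chr13:19128024-19402756) held 6. Per Mb this was 14.2, 15.6 and 21.8 regions, against 9.85 over the genome. Between the first and last segment alone the density was 10.6, 16.5 and 11.4 per Mb, and in Trg only 2 of the 6 regions lay there. The share of bases inside a region was 0.614% in the Tra/Trd window, 0.994% in Trb and 1.15% in Trg, against 0.674% over the genome. The 45 regions of the 3 windows had a median signal of 11.5 and a median width of 473 bp, below the 13.6 and 637 bp of all regions. At an IDR of 0.01 or below the order of the signals turned, with a median of 17.5 in the windows and 15.3 over all regions. In the pseudoreplicated list the windows held 82, 39 and 14 regions. All 45 thresholded regions had −log10 p values in the 2 ranked inputs within 2-fold of each other, with a median ratio of 1.24 and a highest ratio of 1.96, but the inputs come from 1 alignment and the sources used here do not say how they were made.

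**Figure D1:**
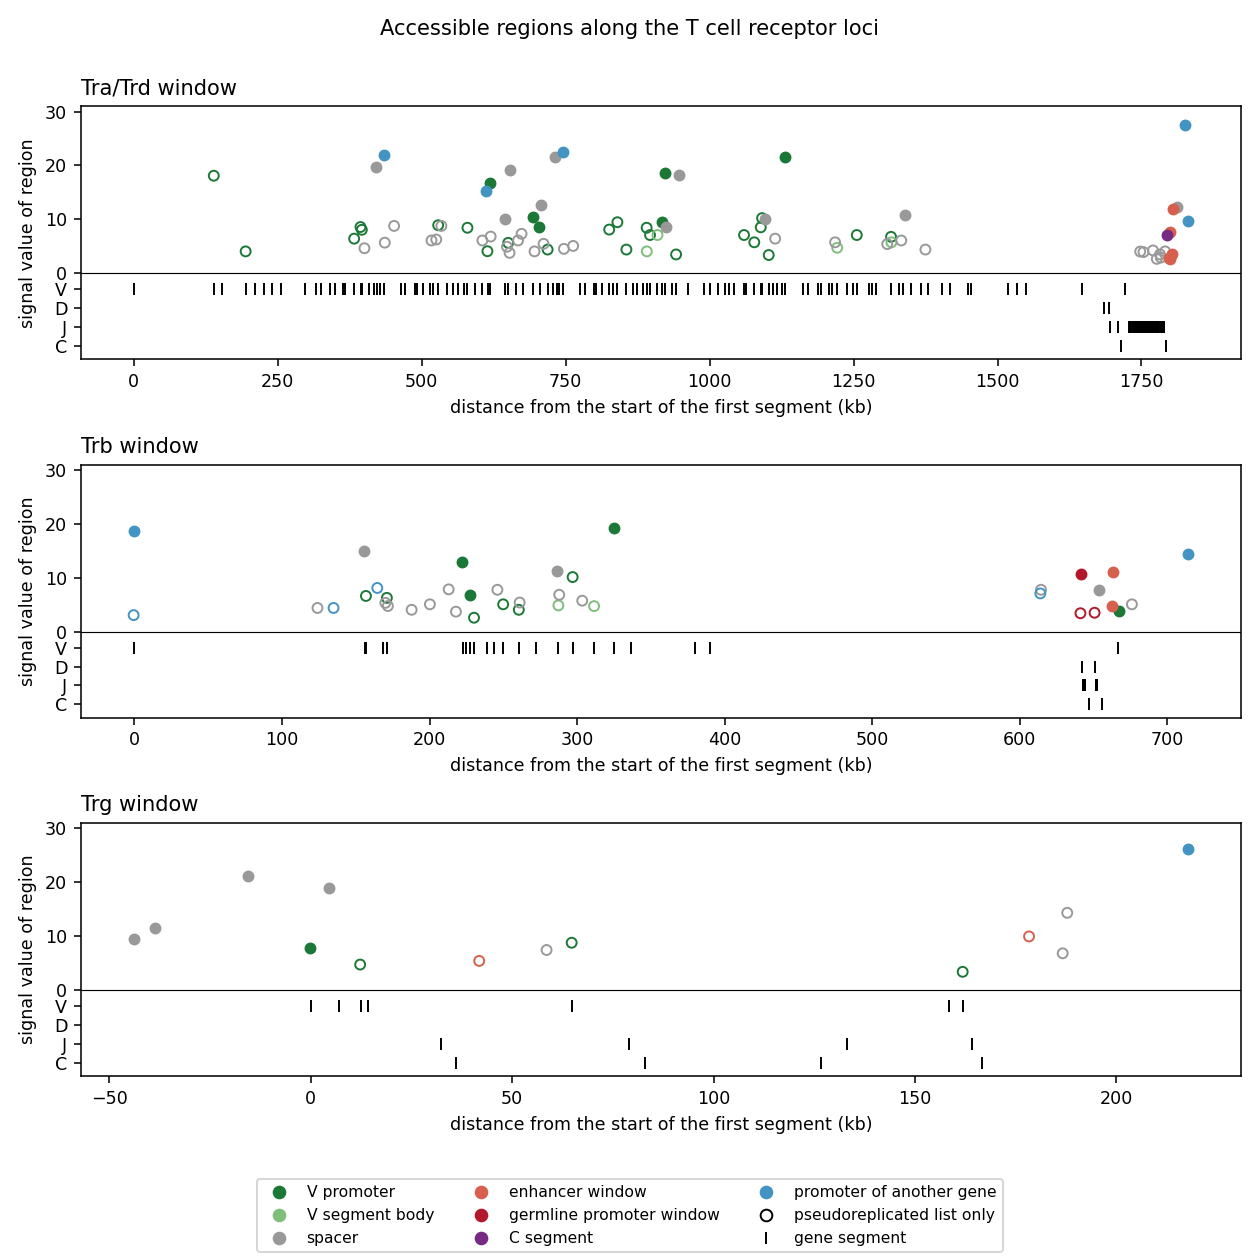
Signal value of every pseudoreplicated region (vertical axis) against its distance in kb from the start of the first segment of each locus (horizontal axis). Filled points are also in the thresholded list, colours give the class of the region, and ticks below 0 mark V, D, J and C segments. In Tra/Trd filled points are missing from the first 420 kb and from a later stretch of 455 kb, and gather at the 3' end around Trac.

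Few segments were themselves overlapped by a region, and those that were belonged almost entirely to the V class. V segments are also the largest class, 144 of 226, and the classes differ in length. V segments span 433 to 1840 bp, J segments 46 to 66 bp and D segments 11 to 16 bp, and a longer body is easier to overlap. A thresholded region shared at least 1 bp with 17 of 226 segments, or 7.52% (95% Wilson interval 4.75 to 11.7), made up of 15 V segments, 1 D segment (Trbd1) and 1 C segment (Trac). Over all GENCODE genes the share was 26.6%, and over the 18401 genes of at most 1000 bp, which are closer to the segments in length, it was 3.14%. In the pseudoreplicated list 51 of 226 segments (22.6%) had a region, against 31.8% of all genes and 4.4% of the short ones. The 264 immunoglobulin segments, the B cell counterparts, had a region in 14 cases (5.30%, 3.18 to 8.70) and in 30 cases (11.4%) in the 2 lists. By locus, 10 of 172 Tra/Trd segments (5.81%, 3.19 to 10.4), 6 of 39 Trb segments (15.4%, 7.25 to 29.7) and 1 of 15 Trg segments (6.67%, 1.19 to 29.8) had a thresholded region. These intervals overlap, no test between loci was made, and segments of a locus share sequence and are not independent.

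**Figure D2:**
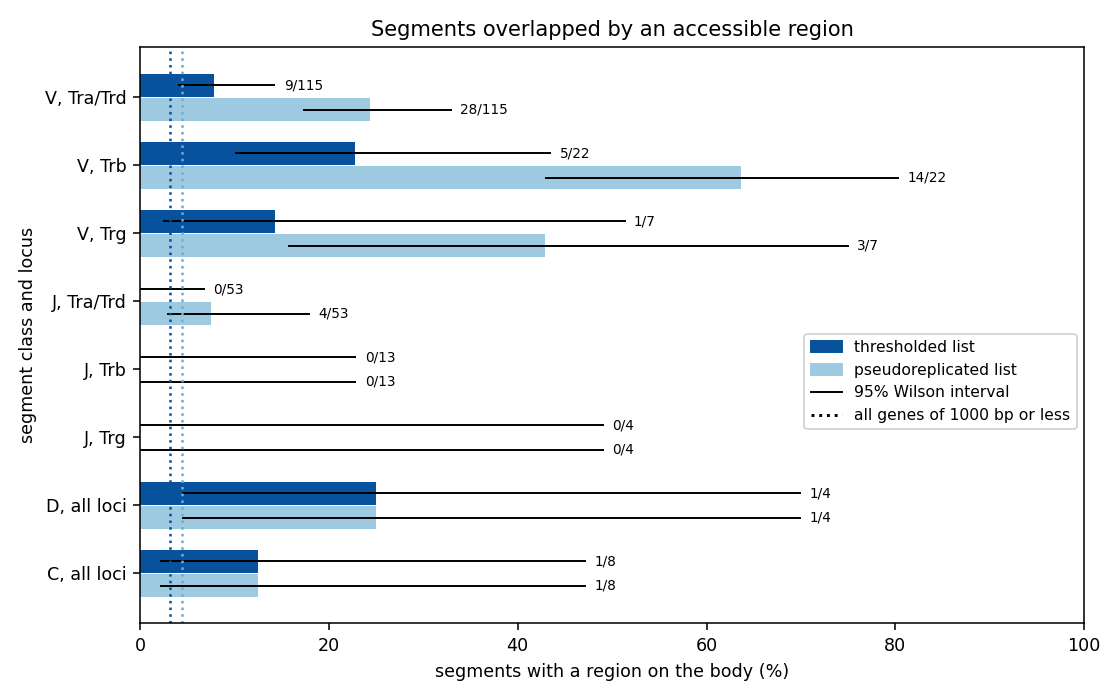
Percentage of segments whose body overlaps a region (horizontal axis) by class and locus (vertical axis) in the thresholded and the pseudoreplicated list, with 95% Wilson intervals as black lines and counts as text. Dotted lines give the share of all genes of at most 1000 bp, 3.14% and 4.4%. V segments of Trb reach 63.6% in the pseudoreplicated list, and no J segment has a thresholded region.

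Among the constant genes, only Trac carried a region on its body. Trac encodes the constant part of the alpha chain, and its region (chr14:54222224-54222804) had a signal of 7.01 with a −log10 p of 127. The values in the ranked inputs were 55.7 and 74.0 and the IDR was 0.00139. The summit lay in an intron, 406 bp after the end of one exon and 435 bp before the start of the next. The other 7 constant genes, Trdc, Trbc1, Trbc2, Tcrg-C1, Tcrg-C2, Tcrg-C3 and Tcrg-C4, had no region on their bodies in either list.

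Downstream of Trac, the window that holds E-alpha (chr14:54224207-54235478, from the end of Trac to the next protein-coding gene) contained 4 thresholded regions. The widest spanned chr14:54227275-54228123 with 2 summits, the stronger 3425 bp after Trac, a signal of 7.69, a −log10 p of 175 and input values of 91.9 and 110. The strongest by signal, at chr14:54233160-54233754 and 9254 bp after Trac, reached 11.96 with a −log10 p of 177. The other thresholded regions of the window were weaker, with signals of 2.88 (1118 bp after Trac) and 3.63 (7024 bp after Trac), and the pseudoreplicated list added another with 2.56. The window was set from the annotation, so which of these regions is the enhancer itself was not settled here. Beyond the window, a region with a CTCF match stood 15065 bp after Trac (signal 12.3, −log10 p 47.0), within Dad1, a widely expressed gene of the protein glycosylation machinery, whose promoter region had a signal of 27.5 with a −log10 p of 389.

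In Trb the window of E-beta (chr6:41548353-41557690, from Trbc2 to Trbv31) contained 2 thresholded regions. The main one, chr6:41554302-41555126, lay 6191 bp after Trbc2 and had a signal of 10.995, a −log10 p of 298.9 and input values of 151 and 143. The lesser one, chr6:41553354-41553678, had 4.84 and 67.5. Both were also in the pseudoreplicated list, which added none.

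The enhancer windows of the gamma and delta genes held no thresholded region. The E-delta window, between the last Trdj segment and Trdc (chr14:54136838-54142850), had no region in either list. The E-gamma windows, taken as 5000 bp after each gamma constant gene, held in the pseudoreplicated list 1 after Tcrg-C4 (signal 9.94, −log10 p 31.2, 3567 bp after the gene) and 1 after Tcrg-C1 (signal 5.40, 9.43, 2797 bp after the gene). Those after Tcrg-C2 and Tcrg-C3 were without any. The Tcrg-C4 region had input values of 10.6 and 20.8 and an IDR of 0.162, and the Tcrg-C1 region an IDR of 0.388.

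The regions at enhancers and Trac had high −log10 p values for their signal, and the germline promoter region less so. Each region was ranked among all thresholded regions with a signal within 10% of its own. The 8 regions of these classes lay at a median percentile of 95.8 (64.3 to 99.7). The lowest, at 64.3, was the germline promoter region of Trbd1. The 28 regions at V promoters or in spacers lay at a median percentile of 22.3 (3.53 to 87.8). Within Tra/Trd the contrast was between 5 regions from 70.0 to 99.7 and 16 regions from 3.53 to 48.4, which did not overlap. In Trb the groups overlapped, with 3 regions from 64.3 to 99.7 and 7 regions from 16.1 to 87.8. In Tra/Trd 15 of those 16 had summits with repeated sequence, as described further on, and the 1 with a fully unique summit lay at 38.7. All 5 enhancer and Trac regions of Tra/Trd and all 10 of Trb in these groups had fully unique summits. The 6 Tra/Trd regions at promoters of other genes, in neither group, lay from 1.59 to 79.4, with a median of 19.3. Of these, 3 had fully unique summits. The 5 V promoter or spacer regions of Trg, also fully unique, lay from 3.53 to 57.2. The part of repeated sequence in the percentiles was not tested.

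**Figure D3:**
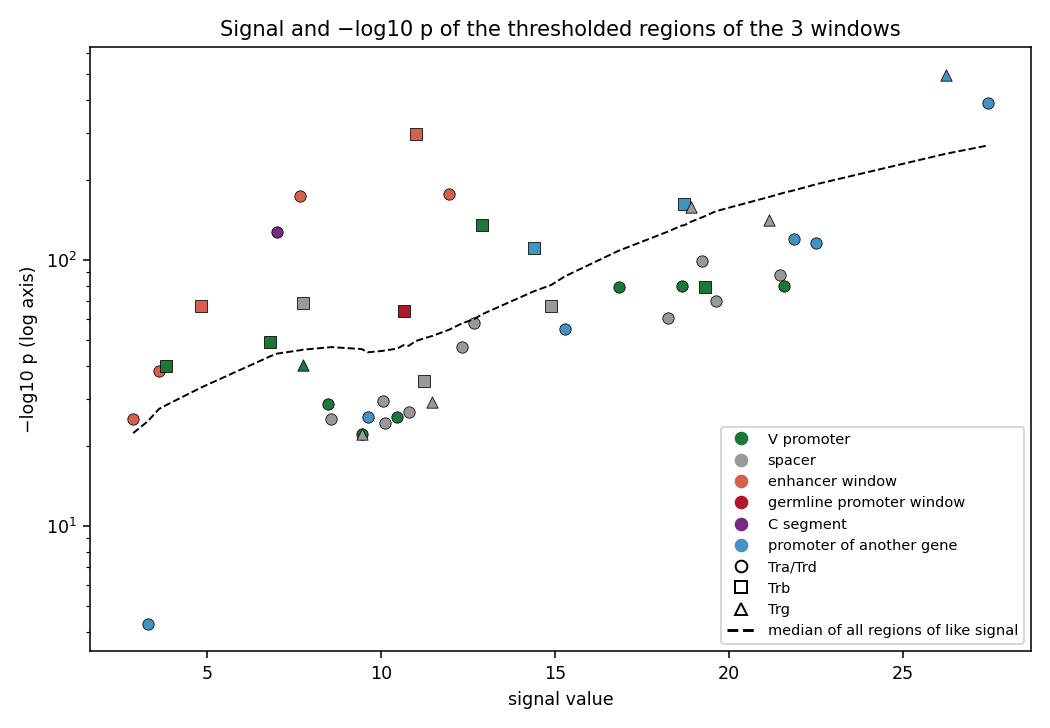
−log10 p (vertical log axis) against signal value (horizontal axis) for the 45 thresholded regions of the 3 windows, with colours for class and shapes for locus. The dashed line is the median −log10 p of all thresholded regions within 10% of the same signal. All 6 enhancer window regions lie above the line, the highest at 298.9, and the V promoter and spacer regions of Tra/Trd sit below it.

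D segments were represented by Trbd1 alone. The Trbd1 region (chr6:41532542-41533221) covered the 12 bp segment and the germline promoter upstream of it, with its summit 367 bp before the segment, a signal of 10.7, a −log10 p of 64.2 and input values of 31.5 and 34.8. A second region of the Trbd1 promoter window (chr6:41532184-41532409, signal 3.41, −log10 p 8.46) was in the pseudoreplicated list only. Trbd2 had no region on its body. A pseudoreplicated region at chr6:41541621-41542050 reached into its promoter window with a signal of 3.50, a −log10 p of 14.9 and an IDR of 0.191. Trdd1 and Trdd2 were without a region in either list, as was the 5000 bp window upstream of the first Traj segment, where the germline promoter TEA (T early alpha) is placed.

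None of the 70 J segments had a thresholded region, which allows a share of up to 4.29%, and 4 (5.71%, 2.24 to 13.8) had one in the pseudoreplicated list. Both are near the 3.14% and 4.4% of short genes. In Tra/Trd 4 of 53 had one in the pseudoreplicated list, namely Traj42 (signal 4.02), Traj37 (3.93), Traj7 (2.91) and Traj15 (2.66), with a −log10 p of 7.22, 8.09 and 7.60 for the first 3 in that order. The region at Traj42 ended within the 500 bp upstream of Traj41 as well. None of the 13 Trbj segments and none of the 4 Trg J segments had a region in either list. A thresholded region lay 893 bp after Trbj2-7, between the second Trbj cluster and Trbc2 (chr6:41544302-41544999, signal 7.75, −log10 p 68.8). J segments of Tra/Trd and Trb are made of fully unique sequence, in that every word of 31 bases in each of these 66 occurs once in the genome.

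Long stretches of each locus held no region. In Tra/Trd the longest ran over 455 kb of the thresholded list (chr14:53766809-54222223) and held 68 segments, namely 12 V, both D, all 53 J and Trdc. A second one of 420 kb (chr14:52427928-52848036), from Trav1 to Trav12d-1, held 20 V segments and no other class. In the pseudoreplicated list a stretch of 373 kb (chr14:53802811-54175579) was still empty, with 29 segments from Trav17 to Traj43. In Trb the longest stretch, 316 kb, held 3 V segments (Trbv26, Trbv29 and Trbv30) and 8 protein-coding genes, and in Trg a stretch of 170 kb (chr13:19182778-19352756) held 14 of the 15 segments. None of the 5 Trdv segments had a region in either list, which allows a share of up to 60%, beside 3.14% and 4.4% of short genes. Segments with dv in a Trav name were counted as Trav, and some of them had a region, as given below.

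Most segments with a region on the body were V segments, with the summit usually just upstream of the segment. Of the 45 thresholded regions 11 were classed as V promoters, fewer than the 17 spacer regions. A thresholded region overlapped 9 of 115 V segments in Tra/Trd (7.83%, 4.17 to 14.2), 5 of 22 in Trb (22.7%, 10.1 to 43.4) and 1 of 7 in Trg. In the pseudoreplicated list the counts were 28 (24.3%, 17.4 to 32.9), 14 (63.6%, 43.0 to 80.3) and 3, so that the Wilson intervals of Tra/Trd and Trb did not overlap. These intervals treat segments as independent, which copies that share sequence are not, and no test between loci was made. The part of repeated Trav sequence in this difference was not tested. The summit never fell inside a V segment in the thresholded list, and it did so in 6 of 135 pseudoreplicated regions. For the 11 regions classed as V promoters the summit lay a median of 106 bp upstream of the segment (26 to 450). For 43 in the pseudoreplicated list the median was 101 bp (5 to 450). The class itself requires a summit within 500 bp upstream, so these distances are bounded by definition. Outside the class, the thresholded region on Trav13d-4 had its summit 59 bp downstream of the segment. A further 3 V segments had their summit within 150 bp upstream but were classed with a non-coding gene whose start lies there: Trbv1 with Gm38276, Trav15d-1-dv6d-1 with Gm6740 and Trav15n-1 with Gm6755.

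In Tra/Trd the strongest V regions belonged to the Trav15 and Trav16 families. Trav15n-1 had a signal of 22.5 with a −log10 p of 116, Trav15d-1-dv6d-1 had 21.9 and 120, and Trav15-1-dv6-1 had 21.6 and 80.0. They were followed by Trav16n (18.6 and 79.7), Trav16d-dv11 (16.8 and 79.4) and Trav10n (10.5 and 25.7). Trav2 had a signal of 18.1 with a −log10 p of 56.9 in the pseudoreplicated list but failed the IDR threshold (IDR 0.0879), with input values of 47.0 and 17.6, and its sequence is fully unique. Trav11, with 10.2 and 34.8, was also in the pseudoreplicated list only.

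In Trb the strongest V regions were those of Trbv23 (signal 19.3, −log10 p 79.6), Trbv1 (18.7, 162) and Trbv12-1 (12.9, 135), followed by Trbv12-2 (6.82, 49.4). The region 557 bp before Trbv2, classed as spacer, had 14.9 and 67.2. Trbv31, which lies downstream of E-beta in the opposite direction, had a weak region of 3.83 and 40.1 with its summit 26 bp upstream. In the pseudoreplicated list alone were Trbv20 (10.1, 24.5), Trbv19 (6.83, 16.1) and Trbv3 (6.61, 19.2).

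In Trg the only V segment with a thresholded region was Tcrg-V7 (signal 7.76, −log10 p 40.2, summit 205 bp upstream). Tcrg-V3 (8.77, 19.8) and Tcrg-V6 (4.72, 7.63) had one on the body in the pseudoreplicated list, and Tcrg-V1 (3.37, 4.398) had one within 500 bp upstream. The signal of Tcrg-V3 was higher than that of Tcrg-V7, with the lower −log10 p.

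Spacer regions, with neither a segment, an enhancer window nor a promoter at the summit, numbered 17 of 45, and 4 of these lay at V pseudogenes (Trav15d-3, Trav11n, Trav15n-3 and Trav15-3). In Tra/Trd the strongest were at chr14:53159070-53159344 near Trav12n-1 (signal 21.5, −log10 p 87.9), at chr14:52848037-52848310 near Trav13d-1 (19.6, 69.9) and at Trav15d-3 (19.2, 99.2). In Trb they were the regions before Trbv2, at chr6:41177203-41177476 before Trbv19 (11.3, 35.2) and after Trbj2-7. In the Trg window the strongest spacer regions lay at chr13:19162106-19162533, 15716 bp upstream of Tcrg-V7 (21.2, 141), and at chr13:19182110-19182777, 2540 bp upstream of Tcrg-V4 (18.9, 159), and also at chr13:19139116-19139499 (11.5, 29.3). Genes other than segments with a promoter region in a window were Stard3nl (26.2, 498), Dad1, Ephb6 (14.4, 111), Abhd4 (9.62, 25.8) and the non-coding Gm30214 (15.3, 55.2), besides the 3 at V segments.

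The Trav part is built of repeated blocks, and most of its regions stand on sequence that occurs more than once. Names with d or n mark copies of segments with plain names. Within 300 bases at the V start (250 before and 50 after), the median share of 31-base words that occur once in the genome was 0% for the 34 d copies and for the 28 n copies, and 53.0% for the 46 Trav segments with plain names. The median was 100% for the 22 Trbv segments. At the summits of the thresholded regions, all 12 of Trb and all 6 of Trg were fully unique, against 9 of 27 in Tra/Trd, where the median was 34.5%. How the authors placed reads that match several sites is not stated in those sources, so the values of single copies are uncertain. Among V segments of Tra/Trd, the starts with a thresholded region had a median of 20.4% unique words and those without 18.7%. In the pseudoreplicated list the medians were 6.11% and 26.3%.

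Regions occurred at the same place in several copies. With 201 bases around each summit compared by alignment, 61 of 82 pseudoreplicated regions of Tra/Trd had a copy (90% identity or more over at least 150 bases) elsewhere in the windows, 51 had a copy that also lay in a region, and for 29 every copy did. In Trb none of 39 had a copy, and in Trg 2 of 14 did, neither of them at a region. The regions formed 21 groups of copies, of which 10 had 1 region in each of the d, n and plain blocks. Over these 10 the median signal was 8.74 at d, 11.6 at n and 7.63 at plain copies, and the plain copy was the lowest in 7 of 10. The upstream regions of Trav15 were almost equal, at 21.9, 22.5 and 21.6. At Trav16 they were 16.8, 18.6 and 6.75, and at the spacer near Trav13d-1 19.6, 21.5 and 6.41. At Trav6-6 they were nearly the same, at 8.57, 8.49 and 8.52, yet only the n copy passed the IDR threshold. By name, 3 of 34 d copies, 5 of 28 n copies and 1 of 46 plain ones had a thresholded region on the segment.

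**Figure D4:**
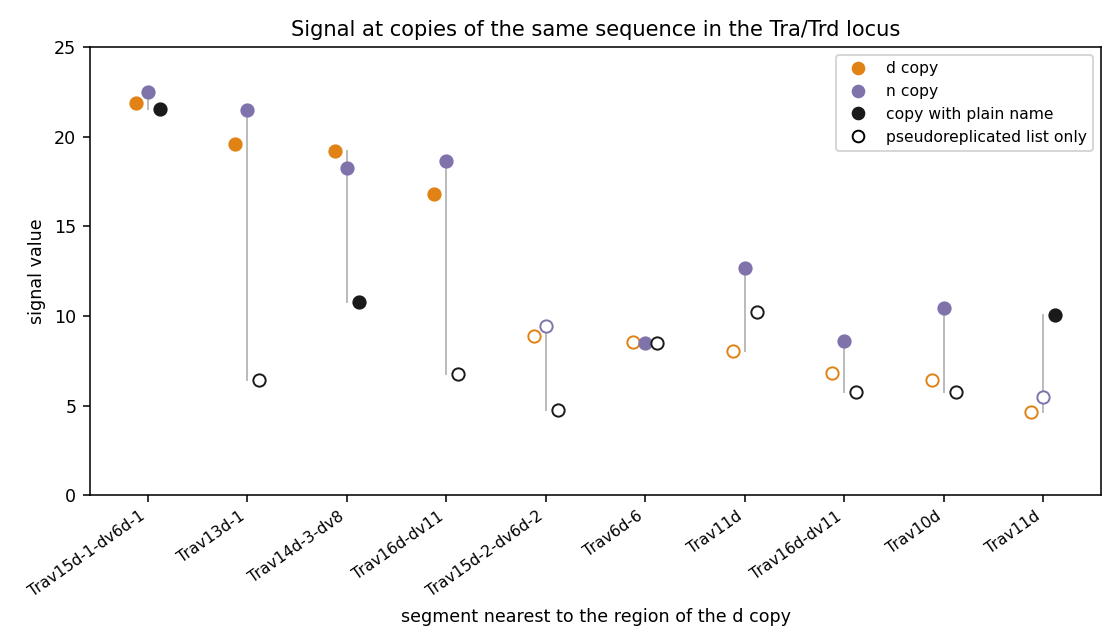
Signal value (vertical axis) of regions at d, n and plain copies of the same sequence, for the 10 groups with a region in each copy, ordered by the d copy and named by its nearest segment (horizontal axis). Open circles are in the pseudoreplicated list only. The 3 Trav15 copies lie together at 21.6 to 22.5, while the plain copy of Trav16 lies at 6.75 against 16.8 and 18.6.

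Sequence motifs were counted at the V starts of each locus. A CRE-like match, the binding motif of CREB and ATF proteins and a known element of V beta promoters, stood in 11 of 22 Trbv start windows (50%), in 11 of 115 of Tra/Trd (9.57%) and in 0 of 7 of Trg, against 8.83% of 32851 RefSeq promoter windows of the same length. It was found at 3 of 5 Trbv segments with a thresholded region and 8 of 17 without, and at 7 of 14 and 4 of 8 in the pseudoreplicated list. The CTCF consensus stood in 17 of 115 Tra/Trd V starts (14.8%), against 0.557% of RefSeq promoters, and in 0 of 22 Trbv starts. Of those 17, 2 had a thresholded region (Trav6n-6 and Trav8n-2). Since Trav copies share their sequence, these 17 are fewer independent matches than their number.

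At the summits of the 45 regions, 24 (53.3%) had a RUNX motif within 150 bases, against 26.1% of all 26090 regions. The count was 17 of 27 in Tra/Trd, 7 of 12 in Trb and 0 of 6 in Trg. In the enhancer windows 4 of 6 had the RUNX motif within 150 bases of the summit. Within that distance 2 of 6 had the ETS core GGAAG and 0 of 6 the CRE-like motif. The widest E-alpha region does hold 1 CRE-like and 2 ETS core matches in its printed stretch, not wholly within that distance. ETS sites of other sequence were not searched. The GATA motif AGATAA stood within 150 bases of the summit in 10 of 27 Tra/Trd regions, against 11.1% of all regions. None of the other 18 had it at that distance. The printed Trbd1 stretch, farther from the summit of its region, does hold it on the other strand. The ETS core was found at 33 of 45 (73.3%, against 77.2%), the CTCF consensus at 5 of 45 (11.1%, against 4.42%) and the STAT motif TTCNNNGAA at 8 of 45 (17.8%, against 8.98%). These are counts within 150 bases of the summits, not over whole regions. The regions partly share sequence, and no test was made.

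**Figure D5:**
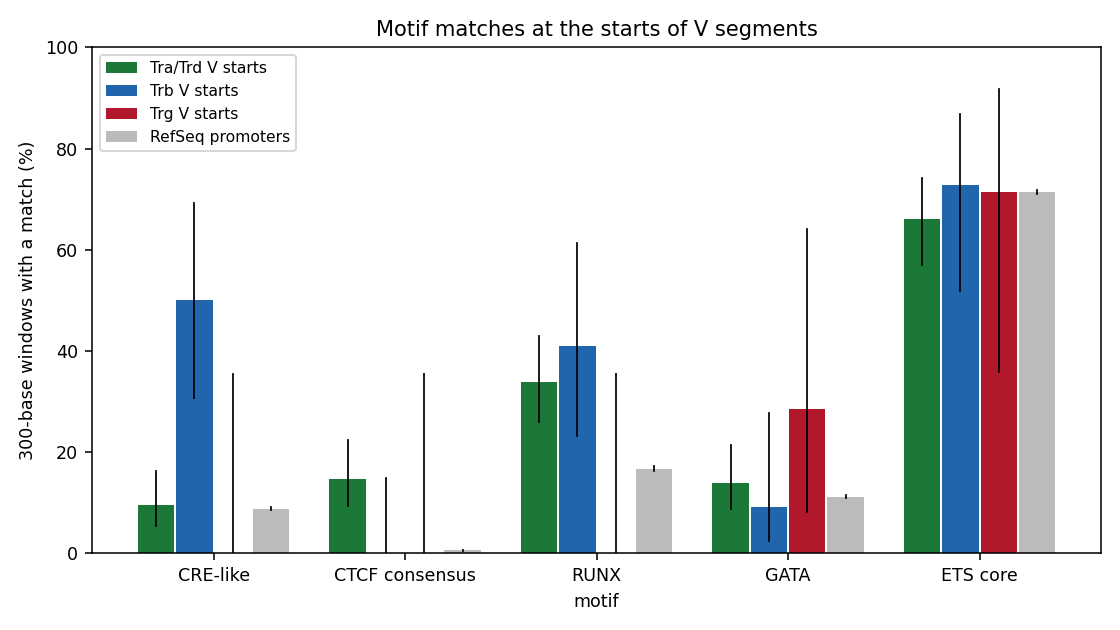
Percentage of V start windows of 300 bases with a match (vertical axis) for 5 motifs (horizontal axis) in each locus, beside all RefSeq promoter windows, with 95% Wilson intervals as black lines. CRE-like matches reach 50% in Trb, and the CTCF consensus reaches 14.8% in Tra/Trd.

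Promoter regions, within 1000 bp of a transcription start, were read at 11 genes linked to recombination. Over all protein-coding genes the share with one was 49.1% in the thresholded and 55.7% in the pseudoreplicated list. None was found in either list at 4 genes known for their role in developing lymphocytes: Rag1 and Rag2, which cut the segments, Dntt, which adds bases at the joints, and Ptcra, the pre-T cell receptor alpha chain. The other 7, which belong to the general end-joining machinery and are widely expressed, had one in both lists, with signals of 25.5 for Xrcc4, 20.8 for Xrcc5, 18.0 for Prkdc, 17.9 for Dclre1c, 16.1 for Nhej1, 16.02 for Xrcc6 and 12.8 for Lig4. The labelled cell type was checked in the same way. Promoter regions were present at 8 of 8 T cell markers (Cd3e at 16.5) and at 5 of 6 regulatory T cell markers (Foxp3 at 9.99, Tnfrsf18 at none). Of the other lineages, 2 of 5 gamma-delta T cell markers (Maf and Blk), 1 of 5 B cell markers (Pax5) and 1 of 2 CD8 markers (Cd8b1) had one, and 0 of 4 myeloid and 0 of 3 NK cell markers did. The pseudoreplicated list added Cd4 (4.51), the gamma-delta marker Sox13 (6.75), the B cell marker Cd79b (5.40) and the myeloid marker Cd14 (8.38). What other cells add to the regions at the segments was not tested.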

How the data were processed

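ATAC-seq of 2 libraries, technical replicates of 1 biological replicate, was available as 3 narrowPeak lists in mm10 (48668 thresholded, 77257 pseudoreplicated and 77986 ranked peaks). The lists were made by the authors from both libraries together. The deposited columns used were the score, which follows from the IDR, the signal value, −log10 p values and the −log10 IDR. The aligner, peak caller, read length and handling of reads that match several sites are not named in the sources used here, and repeated sequence can raise or lower values at single copies. Segments came from GENCODE release M21, and the members and gene lists were chosen with earlier results of these data known.

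Peaks sharing at least 1 bp were merged, keeping the strongest peak's signal and −log10 p. Regions were classed at the summit, first by segment, then enhancer or germline promoter window, gene start within 1000 bp, or 500 bp upstream of a V segment. Enhancer windows were set from the annotation. Shares have 95% Wilson intervals, and limits for 0 use 3 counts. No test between groups was possible with 1 group, and whether the 2 libraries differ cannot be read from lists made on both. The text names every C and D segment, up to 4 J segments, up to 8 V segments and the 3 strongest spacer regions per locus, all regions in enhancer or germline promoter windows, other genes with a promoter region, and the recombination genes; other names and the printed sequences were chosen after their values were seen. Uniqueness was counted in 31-base words of the genome and copies were aligned with blastn 2.17.0. Python 3.11.15, numpy 2.4.6, pandas 2.3.3, scipy 1.17.1 and matplotlib 3.10.9 were used. Merging, overlap, window, class and interval steps were tested on simulated data, where 11 of 11 known answers were recovered. The motif step was not tested in this way. Printed V sequences are examples, and 1 further sequence is not reported here.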

Additional observations from a re-analysis of the deposited data

How the results depend on the processing

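Of 28 alternative values for 7 results, 12 stayed within 1.5 times the reported count or, for the median, within its interval, and 16 did not. With the pseudoreplicated list the windows held 82 (Tra/Trd), 39 (Trb) and 14 (Trg) regions, 33, 15 and 3 segments had a region, and the median signal was 6.82. With an IDR of 0.01 or below the Tra/Trd and Trg windows held 15 and 3 regions, 6 Tra/Trd and 0 Trg segments had one, and the median signal was 17.5, above the 15.3 of all such regions, whereas the reported 11.5 lay below the 13.6 of all. Without the 50 kb on either side Trg held 2 regions. With at least 50% of a segment covered, 0 Tra/Trd, 1 Trb and 0 Trg segments counted. The pseudoreplicated list adds peaks and the other settings remove peaks or area by construction. Leaving out a replicate was not possible, because the lists were made from both libraries together. No paired analysis was possible because all libraries belong to 1 group. The depth is unknown, so a segment without a region may have openness below what these libraries detect.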
